A study of Mus musculus with 3 samples.

Results

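Natural killer (NK) cell receptors and cytotoxic effectors were followed as 10 genes, selected by their names: the receptors Ncr1, Klrd1, Klrk1 and Klrb1c, the transcription factors Tbx21 and Eomes, and the effectors Prf1, Gzma, Gzmb and Nkg7. Each had 1 line among the 23348 usable gene lines of the deposited table, and all 10 were among the 12849 genes counted as measured, that is at 1 FPKM or more in at least 1 library. FPKM counts sequenced fragments, scaled to transcript length and to the mapped fragments of the library. RNA came from DN1 thymocytes, which were sorted as LIN-CD44+CD25- cells, of mice of mixed 129sv/C3H background at postnatal day 19. There were 3 libraries. The CD2-Ostm1 gl/gl library held cells of 3 transgenic mice that carry Ostm1 under CD2 control on the grey-lethal background. The gl/gl library held cells of 3 grey-lethal mice, which are labelled Ostm1-/- and develop osteopetrosis, and the wild type library held cells of 2 mice. With 1 pooled library per genotype, no value below has a replicate, no test could be run and no difference can be set against a spread between mice. The members, gene lists and motifs were chosen with earlier results of these data known. The shares of all genes or promoters given below are therefore a scale for the counts, not an independent test. The sources used here do not name the lineage antibodies.

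NK cells are innate lymphocytes that kill infected or transformed cells without a rearranged antigen receptor. They read a balance of activating and inhibitory surface receptors, many of which belong to the C-type lectin-like Klr family or signal through small adaptor proteins. Killing runs through granules that hold perforin, which opens the target membrane, and granzymes, serine proteases that enter the target and start its death. The transcription factors T-bet (Tbx21) and Eomesodermin (Eomes) direct NK cell maturation, and the thymic DN1 gate can hold NK and other innate lymphoid cells beside early progenitors. Several of the 10 genes are also used by cytotoxic T cells and innate-like T cells.

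The libraries differed in much besides NK genes. Ostm1 stood at 5.35 FPKM in the CD2-Ostm1 gl/gl library and at 19.6 FPKM in the wild type library, and the gl/gl library listed it at 0. Cd44, the positive marker of the gate, had 64.7, 109 and 66.4 FPKM in CD2-Ostm1 gl/gl, gl/gl and wild type, and Il2ra, which encodes CD25, had 4.03, 11.7 and 5.94 FPKM. The 11 measured neutrophil markers summed to 249 FPKM in CD2-Ostm1 gl/gl, 29185 in gl/gl and 240.5 in wild type, and none was at 0 in any library. The 12 early progenitor markers summed to 717, 116 and 720 FPKM in the same order. The Y-linked Eif2s3y had 0.0395, 59.8 and 0.0338 FPKM, and Xist had 235, 0.184 and 116 FPKM. Each difference between gl/gl and another library below therefore lies between libraries that differ in neutrophil, progenitor and sex-linked transcripts too, and genotype cannot be told apart from the sex of the pooled mice. The part of neutrophil and progenitor RNA in the NK gene values was not tested. Fewer NK cells and less NK gene RNA per cell cannot be told apart in such bulk samples.

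All 10 NK genes had their highest value in the gl/gl library. Together they summed to 437 FPKM in CD2-Ostm1 gl/gl, 1089 in gl/gl and 506 in wild type. Nkg7, a membrane protein of cytotoxic granules, was the most abundant member in every library, and Eomes and Prf1 were the 2 least abundant. Nkg7 made up 46.0%, 37.9% and 41.7% of the summed FPKM in CD2-Ostm1 gl/gl, gl/gl and wild type. From the spacing of the lowest values in the table, the members rested on a rough estimate of 210 fragments (Eomes in CD2-Ostm1 gl/gl) to 8337 fragments (Nkg7 in gl/gl). Counting error alone would then be 6.91% and 1.10%, which leaves out all variation between mice, sorts and library preparations.

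**Figure D1:**
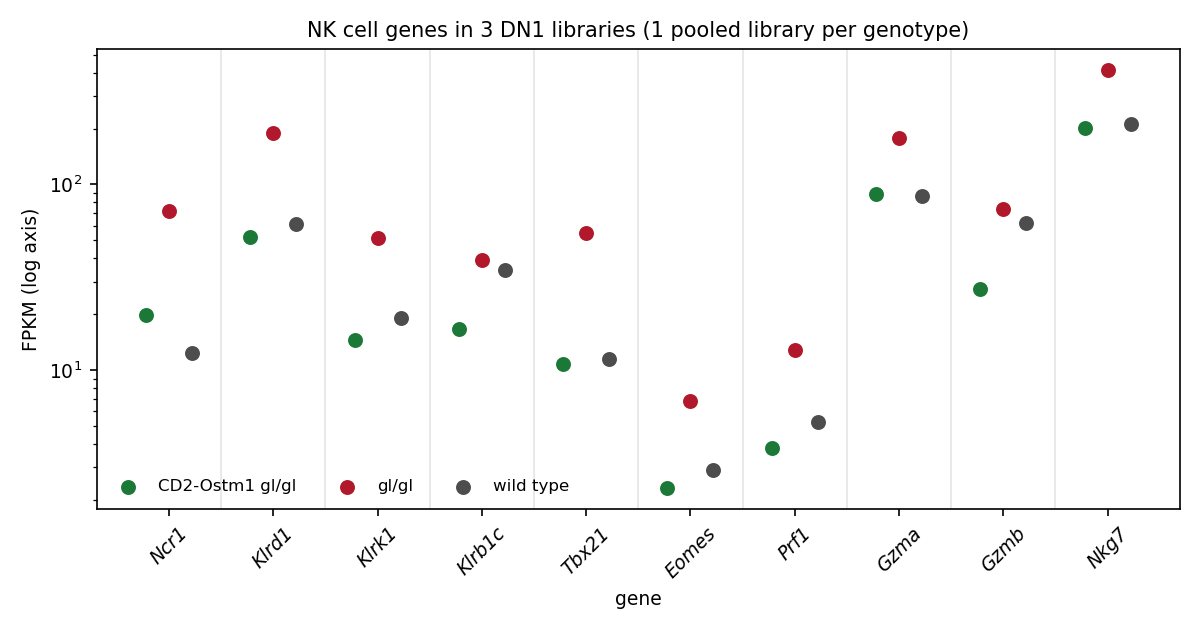
Deposited FPKM of the 10 NK cell genes on a log axis, with 1 point for each pooled library (green CD2-Ostm1 gl/gl, red gl/gl, grey wild type). The red point is the highest for every gene, Nkg7 is the highest gene in each library, and only for Ncr1 and Gzma does the green point lie above the grey one.

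The promoters of 5 members are shown because they belong to genes with unlike patterns in the 3 libraries. Ncr1 and Tbx21 differed most between gl/gl and wild type, Prf1 lay nearest to the common pattern, and Gzmb and Klrb1c were the members that differed least there. The sequences are RefSeq entries on GRCm38.p6 with 250 bases before and 50 after the start, written 5′ to 3′ along the gene, and 9 of the 10 members matched (Klrd1 is named only). Capitals mark the T-box motif AGGTGT, the RUNX motif TGTGGT and the ETS motif AGGAAGT on either strand. T-bet and Eomesodermin are T-box factors, and RUNX and ETS factors act in lymphocytes. The windows are chr7:4337465-4337764, plus strand for Ncr1 (the first of 2 overlapping entries), chr11:97115282-97115581, minus strand for Tbx21, chr10:61297586-61297885, plus strand for Prf1, chr14:56262285-56262584, minus strand for Gzmb and chr6:128788592-128788891, minus strand for Klrb1c.
Ncr1 promoter: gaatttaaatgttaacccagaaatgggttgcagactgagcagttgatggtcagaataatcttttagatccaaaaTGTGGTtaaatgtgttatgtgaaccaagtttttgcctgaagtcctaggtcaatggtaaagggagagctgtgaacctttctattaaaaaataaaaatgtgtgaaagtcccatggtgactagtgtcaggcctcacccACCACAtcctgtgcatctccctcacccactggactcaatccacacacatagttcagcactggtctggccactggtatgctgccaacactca
Tbx21 promoter: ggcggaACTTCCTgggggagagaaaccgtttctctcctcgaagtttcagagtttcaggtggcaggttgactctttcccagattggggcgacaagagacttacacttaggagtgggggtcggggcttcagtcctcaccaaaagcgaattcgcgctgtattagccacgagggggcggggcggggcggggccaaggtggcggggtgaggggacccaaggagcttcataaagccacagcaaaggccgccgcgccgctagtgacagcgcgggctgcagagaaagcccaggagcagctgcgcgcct
Prf1 promoter: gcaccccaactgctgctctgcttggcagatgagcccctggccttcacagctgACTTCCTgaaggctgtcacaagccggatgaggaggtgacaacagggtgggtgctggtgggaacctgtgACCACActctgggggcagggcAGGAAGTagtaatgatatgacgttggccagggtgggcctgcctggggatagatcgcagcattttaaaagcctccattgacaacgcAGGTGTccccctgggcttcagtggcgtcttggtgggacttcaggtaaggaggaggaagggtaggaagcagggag
Gzmb promoter: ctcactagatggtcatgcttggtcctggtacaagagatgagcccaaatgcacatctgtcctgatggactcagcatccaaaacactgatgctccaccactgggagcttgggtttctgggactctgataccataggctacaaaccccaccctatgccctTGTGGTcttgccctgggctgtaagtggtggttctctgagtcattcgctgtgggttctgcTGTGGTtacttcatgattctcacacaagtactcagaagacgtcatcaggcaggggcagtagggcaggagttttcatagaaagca
Klrb1c promoter: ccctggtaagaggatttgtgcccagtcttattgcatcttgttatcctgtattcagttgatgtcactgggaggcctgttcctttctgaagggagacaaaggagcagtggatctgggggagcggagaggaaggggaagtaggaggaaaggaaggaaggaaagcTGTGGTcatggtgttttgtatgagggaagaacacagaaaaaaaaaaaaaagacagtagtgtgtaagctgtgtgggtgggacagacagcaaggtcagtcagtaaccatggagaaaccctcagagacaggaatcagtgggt
A RUNX match stood in 7 of the 9 members' windows, against 16.8% of all 32851 promoter windows of this length. T-box matches stood in 3 of 9, those of Prf1, Gzma and Nkg7, against 13.7% of all windows, and ETS matches in 2 of 9, those of Tbx21 and Prf1, against 9.35%. The Ncr1 window held 2 RUNX matches, 176 and 41 bases before the start, and the Gzmb window held 2 as well, 93 and 34 bases before it. These distances are from the RefSeq start, which lies 74 bases before the start of Gzmb in the deposited table and 9 bases before that of Ncr1, so the Gzmb window holds no base of the gene as tabled. For Tbx21, Prf1 and Klrb1c both starts are the same base. Genes with unlike patterns thus held the same motif. No pair of marked matches overlapped in the 5 sequences shown. Runx3, the RUNX factor of cytotoxic lymphocytes, had 28.1, 30.1 and 24.9 FPKM in CD2-Ostm1 gl/gl, gl/gl and wild type, all within 2-fold of each other. These matches are letters in a window, not sites of binding.

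The receptors differed among themselves. Ncr1 (chromosome 7, 4337724 to 4345164, mm10), the activating receptor NKp46 that marks NK cells, had 19.9 FPKM in CD2-Ostm1 gl/gl, 71.9 in gl/gl and 12.4 in wild type. Its gl/gl value stood far above both others, and it ranked 5th, 5th and 7th among the 10 genes in these libraries. Klrd1 (chromosome 6, 129591811 to 129598775), which encodes CD94, the common chain of the CD94/NKG2 receptors, was at 52.0, 188 and 61.2 FPKM in that order. Klrk1 (chromosome 6, 129610321 to 129623841), the activating receptor NKG2D, was at 14.6, 51.2 and 19.0 FPKM. For both lectin-like genes the gl/gl library was high, and the CD2-Ostm1 gl/gl library was somewhat below wild type. Klrb1c (chromosome 6, 128778485 to 128788641), the receptor known as NK1.1, had 16.6 FPKM in CD2-Ostm1 gl/gl, 39.2 in gl/gl and 34.5 in wild type. Here gl/gl and wild type were close, and CD2-Ostm1 gl/gl stood apart as low. The ratio of Ncr1 to Klrb1c, both per length, was 1.20 in CD2-Ostm1 gl/gl, 1.83 in gl/gl and 0.359 in wild type. Thus the order of these NK receptors differed between wild type and both other libraries.

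Klrd1 protein works only when paired with an NKG2 chain, and Klrk1 signals through the adaptor DAP10, encoded by Hcst. The NKG2 genes Klrc1, Klrc2 and Klrc3 all had more FPKM in gl/gl than in wild type, with log2 differences of 0.53, 0.64 and 1.62 on the scale of log2(FPKM + 1). Their sum was lower than Klrd1 in every library: the ratio of Klrd1 to it was 3.92 in CD2-Ostm1 gl/gl, 4.94 in gl/gl and 2.87 in wild type. The Klrc genes share exact sequence with each other, up to 41.1% of the 50-base windows of Klrc3, so their separate values are uncertain. Klrk1 had 0.251, 0.235 and 0.191 times the FPKM of Hcst in CD2-Ostm1 gl/gl, gl/gl and wild type. This ratio was close between CD2-Ostm1 gl/gl and gl/gl, where both genes differed in level, and was lowest in wild type.

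The transcription factors shared a direction but not a size of difference. Tbx21 (chromosome 11, 97098007 to 97115331) had 10.8 FPKM in CD2-Ostm1 gl/gl, 55.0 in gl/gl and 11.5 in wild type. Eomes (chromosome 9, 118478189 to 118486132) was lower throughout, at 2.31, 6.80 and 2.89 FPKM. Both were highest in gl/gl, and CD2-Ostm1 gl/gl was close to wild type for each. The ratio of Tbx21 to Eomes was 4.68 in CD2-Ostm1 gl/gl, 8.09 in gl/gl and 3.97 in wild type, with T-bet transcript the more abundant throughout. Eomes overlaps exons of Gm33460, and without a known strand setting reads of both cannot be told apart.

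Among the effectors, Prf1 (chromosome 10, 61297836 to 61304263), perforin, had 3.82 FPKM in CD2-Ostm1 gl/gl, 12.9 in gl/gl and 5.24 in wild type. Gzma (chromosome 13, 113093827 to 113100981), granzyme A, a trypsin-like protease, had 88.6, 177 and 86.2 FPKM. Nkg7 (chromosome 7, 43437138 to 43438246) had 201, 413 and 211 FPKM. For Gzma and Nkg7, CD2-Ostm1 gl/gl was nearly level with wild type, and gl/gl was about 2-fold above both. Gzmb (chromosome 14, 56258858 to 56262260), granzyme B, which cleaves caspases, had 27.4 FPKM in CD2-Ostm1 gl/gl, 73.4 in gl/gl and 62.1 in wild type. Like Klrb1c, it was close between gl/gl and wild type and low in CD2-Ostm1 gl/gl. The proportion of the granzymes differed between libraries: Gzma was at 3.23 times the level of Gzmb in CD2-Ostm1 gl/gl, 2.42 times in gl/gl and 1.39 times in wild type.

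Setting gl/gl against wild type asks how cells of mice without Ostm1 differ from normal DN1 cells. On the log2(FPKM + 1) scale, which understates the change of low genes, 7 of the 10 members were at least 2-fold higher in gl/gl and none was lower. The share of all 12849 measured genes was 8.16% for 2-fold higher and 6.15% for 2-fold lower. The median difference of the members was 1.09, against -0.03 over all measured genes. Ncr1 and Tbx21 led with log2 differences of 2.44 and 2.16, and Klrd1, Klrk1 and Prf1 followed with 1.61, 1.38 and 1.15. Gzma and Eomes lay just inside the 2-fold line with 1.03 and 1.00, and Nkg7 just outside it with 0.96. With a pseudocount of 5, Eomes and Prf1 were under 2-fold, at 0.58 and 0.80. Gzmb and Klrb1c had 0.24 and 0.18, so the members that did not pass 2-fold included granzyme B and an NK receptor of the same chromosome 6 cluster as Klrd1 and Klrk1. In the same pair of libraries all 11 neutrophil markers were at least 2-fold higher in gl/gl, with a median log2 difference of 6.50.

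Setting CD2-Ostm1 gl/gl against wild type asks what still differs when gl/gl mice carry the transgene. None of the 10 members was at least 2-fold higher and 2 were at least 2-fold lower, against 1.34% higher and 1.67% lower among all measured genes. These 2 were Gzmb and Klrb1c, with log2 differences of -1.15 and -1.02. Klrb1c was under 2-fold, at -0.98 and -0.94, when the libraries were scaled to their median gene ratio or to the same upper quartile, and at -0.87 with a pseudocount of 5. Ncr1 had a log2 difference of 0.64, and the other 7 members lay between -0.37 (Prf1) and 0.04 (Gzma). The median was -0.23, against -0.04 over all measured genes. The neutrophil markers had a median log2 difference of 0.28 here, and the conventional dendritic cell markers one of -1.43, with 7 of 12 at least 2-fold lower.

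Setting CD2-Ostm1 gl/gl against gl/gl asks how the transgene-bearing library differs on the same background. All 10 members were lower in CD2-Ostm1 gl/gl, 9 of them by at least 2-fold, where 9.82% of all measured genes were at least 2-fold lower and 6.47% at least 2-fold higher. The log2 differences ran from -2.25 for Tbx21 to -0.99 for Gzma, the 1 member short of 2-fold, with a median of -1.46 against 0.02 over all measured genes. Klrd1, Ncr1 and Klrk1 had -1.84, -1.80 and -1.75, and Gzmb and Klrb1c -1.39 and -1.19. With a pseudocount of 5 Eomes was short of 2-fold, at -0.69, and with equal upper quartiles Nkg7 was, at -0.96. The 3 comparisons share libraries in pairs, so they are not independent of each other. The 11 neutrophil markers were all at least 2-fold lower in CD2-Ostm1 gl/gl, with a median of -6.21.

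**Figure D2:**
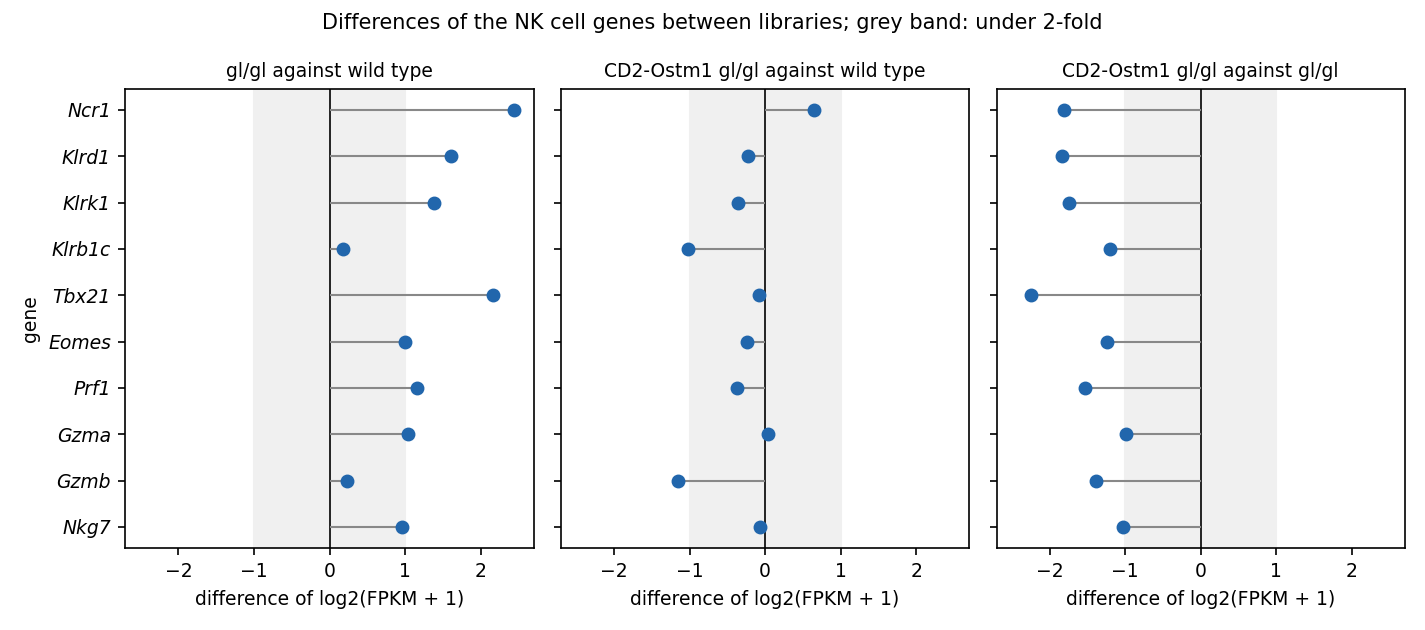
Difference of log2(FPKM + 1) for each of the 10 NK cell genes in the 3 comparisons, with the first-named library minus the second, and a grey band for differences under 2-fold. In gl/gl against wild type Gzmb (0.24) and Klrb1c (0.18) lie near 0 while Ncr1 reaches 2.44, and in CD2-Ostm1 gl/gl against gl/gl every point lies below 0.

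The other NK cell receptors showed a wider range than the 10 members. Of 32 listed genes 30 were measured, and 14 were at least 2-fold higher and 2 lower in gl/gl than in wild type. The median log2 difference was 0.90. Among all measured genes 8.16% were higher and 6.15% lower, so 2 lower genes of 30 are near that share. Klrb1a, a relative of Klrb1c, had 43.8 FPKM in gl/gl against 3.84 in wild type, a log2 difference of 3.21. Klra2, a Ly49 family receptor gene, had 9.13 against 0.287 FPKM, and Klra17 12.8 against 1.48 FPKM. The summed neutrophil, monocyte and plasmacytoid dendritic cell markers were also higher in gl/gl. Which cells carried the Klra2 and Klra17 transcripts was not tested. Fcgr3, the Fc receptor CD16, had 68.9 against 9.46 FPKM and is also a gene of neutrophils and macrophages. The 2 lower genes were Klra9, with 4.60 FPKM in gl/gl against 12.1 in wild type, and Klrb1b, with 2.47 against 6.18. In CD2-Ostm1 gl/gl none of the 30 was at least 2-fold higher than in wild type and 3 were lower, against 1.34% and 1.67% of all measured genes. These 3 were Klra9, Klra3 and Klrb1b, with log2 differences of -1.72, -1.43 and -1.04. Klrb1b is also uncertain, because 29.0% of its 50-base windows occur in other genes.

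Adaptors that carry the signal of these receptors split in 2 groups. In gl/gl against wild type 4 of 13 measured adaptors were 2-fold or more higher and none lower, against 8.16% and 6.15% of all measured genes. The 4 higher adaptors are named with gl/gl first. They were Fcer1g, the Fc receptor gamma chain used by Ncr1, with 210 against 37.0 FPKM, Tyrobp (DAP12) with 528 against 141, Hcst with 218 against 99.7, and Sh2d1b1, the adaptor EAT-2, with 6.02 against 1.99. Fcer1g and Tyrobp are also expressed by myeloid cells, and the 11 measured monocyte and macrophage markers summed to 1298 FPKM in gl/gl against 205 in wild type, with none at 0 in either. Kinases and adaptors shared with T cells lay near 0, such as Lck at 0.01, Fyn at 0.11 and Cd247, the CD3 zeta chain, at -0.39. None of the 13 reached 2-fold between CD2-Ostm1 gl/gl and wild type, which is near the shares of 1.34% higher and 1.67% lower among all measured genes.

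Of the granule and killing genes outside the 10, 17 of 23 were measured. At least 2-fold higher in gl/gl than in wild type were 7, and none was lower, against 8.16% and 6.15% of all measured genes. Stx11, a syntaxin of granule release, had 24.9 against 4.34 FPKM, Serpinb9, an inhibitor of granzyme B, 29.2 against 9.69, and Lyst, a regulator of lysosome-related organelles, 45.7 against 17.1. Rab27a, a GTPase that docks granules, had 90.9 against 38.3 FPKM. The other granzymes were low: Gzmc lay between 4.54 and 5.05 FPKM in the 3 libraries, while Gzmk and Gzmm were under 1.5 FPKM and Gzme, Gzmf, Gzmg and Gzmn were listed at 0 in all libraries. None of the 17 genes reached 2-fold between CD2-Ostm1 gl/gl and wild type. Among all measured genes 1.34% were higher and 1.67% lower there, so a count of 0 does not set these genes apart.

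Cytokines, chemokines and their receptors on NK cells were all 19 measured. Of these, 9 were at least 2-fold higher and none lower in gl/gl than in wild type, with a median log2 difference of 0.93. Among all measured genes 8.16% were higher and 6.15% lower. Ccl5, a chemokine of activated lymphocytes, had 761 against 76.6 FPKM, and Xcl1, a chemokine that attracts cross-presenting dendritic cells, 260 against 65.2. Il2rb, the shared receptor chain for interleukins 2 and 15 on which NK cells depend, had 367 against 107 FPKM. S1pr5, a receptor for exit of NK cells from tissue, had 3.90 against 0.379 FPKM. In CD2-Ostm1 gl/gl Il2rb had 108 FPKM, level with wild type. Cxcr6 and Il18r1 were the 2 genes at least 2-fold lower there, with log2 differences of -1.37 and -1.17, against 1.67% of all measured genes.

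Transcription factors of NK and innate lymphoid cells differed less. In gl/gl against wild type 5 of 21 measured factors were 2-fold or more higher and none lower, against 8.16% and 6.15% of all measured genes. The median log2 difference of the factors was 0.38. Klf2, a factor of lymphocyte quiescence and trafficking, had 114 against 30.2 FPKM, Hopx, a homeodomain protein, had a log2 difference of 1.45, Nfil3, an early NK lineage factor, had 19.4 against 7.34 FPKM, and Irf8 had 141 against 59.6. Id2, the inhibitor of E proteins needed for innate lymphocytes, had 108 FPKM in CD2-Ostm1 gl/gl, 441 in gl/gl and 232 in wild type. It was the 1 gene of this list at least 2-fold lower in CD2-Ostm1 gl/gl than in wild type, the direction of Gzmb and Klrb1c. Among all measured genes 1.67% were lower there, so a count of 1 among 21 does not set the list apart.

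**Figure D3:**
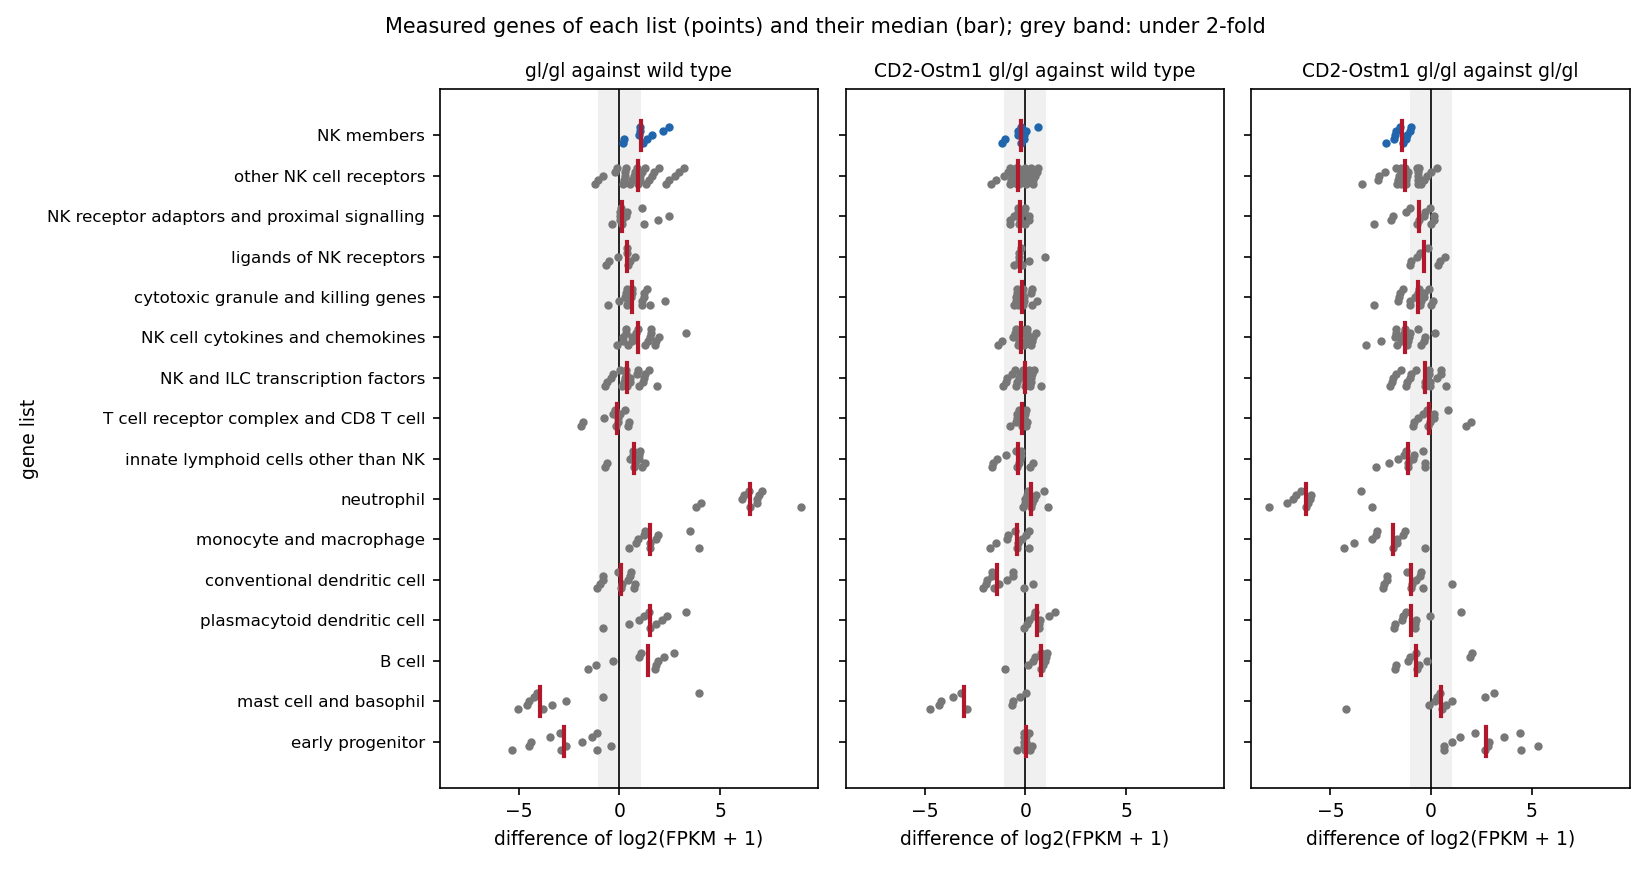
Each point is 1 measured gene of a list, placed at its difference of log2(FPKM + 1), first-named library minus the second, with a red bar at the list median and a grey band for differences under 2-fold. The 10 NK cell genes (blue) have medians of 1.09, -0.23 and -1.46 in the 3 comparisons, beside neutrophil medians of 6.50, 0.28 and -6.21.

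T cell genes were present in the lineage-negative cells and differed among themselves. Cd3e and Cd3d, signalling chains of the T cell receptor complex, were highest in gl/gl and lowest in CD2-Ostm1 gl/gl, the order of Klrd1, Klrk1 and Prf1. Cd3e had 57.7 FPKM in CD2-Ostm1 gl/gl, 107 in gl/gl and 77.3 in wild type, and Cd3d had 83.8, 152 and 113 FPKM, all within 2-fold. Cd3g, the other CD3 chain of the list, had 164, 262 and 274 FPKM in that order and was highest in wild type. Of the 12 measured genes, 4 were above wild type in gl/gl and 8 below it, with a median log2 difference of -0.11. Cd8a and Cd8b1, the chains of CD8, had 7.83 and 9.57 FPKM in gl/gl against 32.7 and 35.5 in wild type, with log2 differences of -1.93 and -1.79. These were the 2 genes at least 2-fold lower among 12, and none was higher. Among all measured genes 6.15% were lower and 8.16% higher, so a count of 0 higher does not set the T cell genes apart. The ratio of Ncr1 to Cd3e was 0.345 in CD2-Ostm1 gl/gl, 0.673 in gl/gl and 0.160 in wild type. Plasmacytoid dendritic cells can express granzyme B in human. Their markers had 7 of 10 genes at least 2-fold higher in gl/gl than in wild type, against 8.16% of all measured genes. These markers summed to 293, 596 and 218 FPKM in CD2-Ostm1 gl/gl, gl/gl and wild type. Their part in the Gzmb values was not tested.

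Klrb1c, Klrd1 and Klrk1 lie within 845 kb of each other in the NK gene complex of chromosome 6, a cluster of lectin-like receptor genes. Between Klrb1a and Klra2 (128609227 to 131247362) the table had 57 lines, of which 44 were measured. In gl/gl against wild type 17 were at least 2-fold higher and 5 lower, with a median log2 difference of 0.66, against 8.16% and 6.15% of all measured genes. In CD2-Ostm1 gl/gl against wild type none was higher and 7 were lower, against 1.34% and 1.67%. The 17 include the members Klrd1 and Klrk1, and the 7 include Klrb1c. Genes of the cluster thus differed in direction: Clec7a, the myeloid receptor dectin-1, had 11.6 against 1.64 FPKM in gl/gl and wild type, while Gabarapl1, an autophagy gene between Klrb1c and Klrd1, had 15.0 against 49.7. The table gave 18 Klra lines 1 shared position, and up to 39.8% of the 50-base windows of a listed Klra gene (Klra10) occurred in another gene, so separate Klra values are uncertain. Of the 10 members, Klrb1c had 18.1% of such windows in another gene, mostly Gm44511, which overlaps it. Eomes had 0.285%, and the other 8 had none. The mice were 129sv/C3H while reads were placed on mm10, and the effect of strain differences on these values was not tested.

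Gzmb lies at the end of a cluster of granzyme and mast cell protease genes on chromosome 14 (55941451 to 56262260). Of 9 measured lines, 7 were at least 2-fold lower in gl/gl than in wild type and 7 at least 2-fold lower in CD2-Ostm1 gl/gl than in wild type. The shares of all measured genes were 6.15% and 1.67%. The first 7 include Ctsg and not Gzmb, and the second 7 include Gzmb itself and not Ctsg. Mcpt8, a basophil protease gene, had 1.23 FPKM in CD2-Ostm1 gl/gl, 0.0942 in gl/gl and 19.7 in wild type. Gzmb was at least 2-fold below wild type in CD2-Ostm1 gl/gl and not in gl/gl. The 10 measured mast cell and basophil markers summed to 149, 55.4 and 303 FPKM in CD2-Ostm1 gl/gl, gl/gl and wild type, and only Tpsb2 in gl/gl was at 0. Single genes carried these sums: Kit, which is also in the progenitor list, had 102 FPKM in CD2-Ostm1 gl/gl, 15.3 in gl/gl and 101 in wild type, and Hdc had 35.0 FPKM in gl/gl. Cpa3, a mast cell carboxypeptidase, had 40.6, 3.76 and 65.6 FPKM. The measured serine proteases of the list were all at least 2-fold lower in CD2-Ostm1 gl/gl and in gl/gl than in wild type, as for Mcpt2 with 1.03, 0.212 and 38.8 FPKM and Cma1 with 0.251, 0.0340 and 21.8 FPKM. Mast cells can express granzyme B. Their part in the Gzmb values was not tested.

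**Figure D4:**
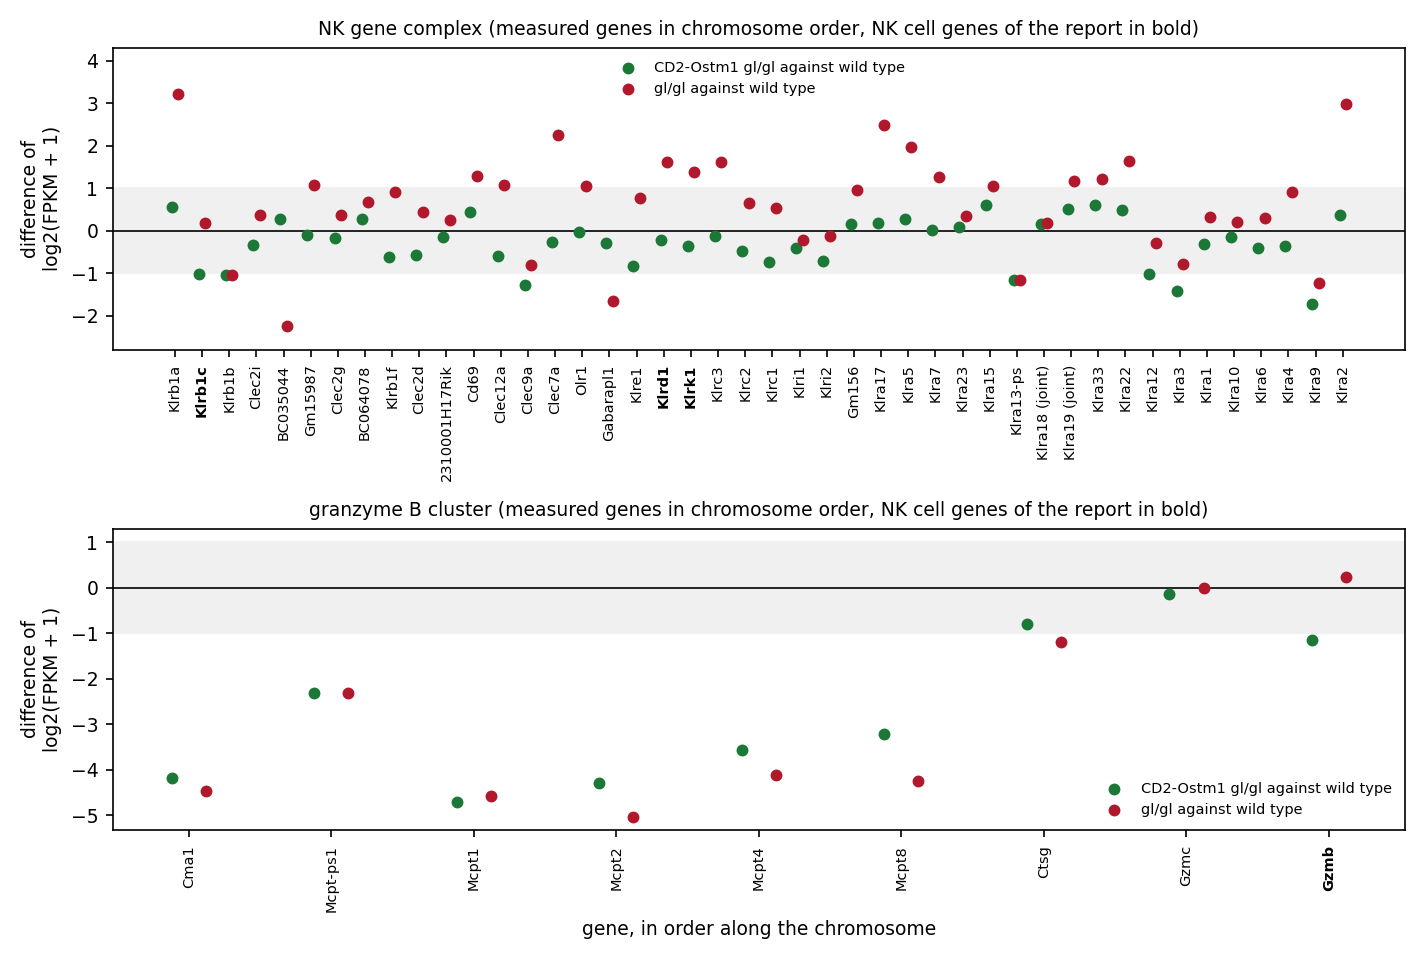
Difference of log2(FPKM + 1) against wild type for the measured genes of the NK gene complex (upper panel) and the granzyme B cluster (lower panel), with CD2-Ostm1 gl/gl in green, gl/gl in red and a grey band for differences under 2-fold. The 18 Klra lines with 1 shared position stand in table order where measured. Klrd1 (1.61) and Klrk1 (1.38) lie above the band in gl/gl, whereas Klrb1c is at 0.18, and Gzmb is at 0.24 beside Mcpt8 at -4.24.

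The common pattern of the members was taken as the median of their log2(FPKM + 1) values after centring each gene on its mean over the 3 libraries. It was -0.66 in CD2-Ostm1 gl/gl, 0.82 in gl/gl and -0.32 in wild type. Prf1 lay nearest to it, at a Euclidean distance of 0.0988 over the 3 libraries, and Ncr1 farthest, at 0.966. Among 9483 other genes at 5 FPKM or more in some library, the 10 nearest were Sema4a, Rgs14, Ly6a, Cpd, Gpr35, Ctsw, Flot2, Dapk2, Hs3st3b1 and Gab3, with distances from 0.103 to 0.119. Ctsw, cathepsin W, a protease of cytotoxic lymphocytes, had 81.2 FPKM in CD2-Ostm1 gl/gl, 216 in gl/gl and 99.5 in wild type. Ly6a, the surface antigen Sca-1, had 64.2, 188 and 85.4 FPKM. With 3 libraries such likeness is weak, since any gene about 2-fold higher in gl/gl and a little lower in CD2-Ostm1 gl/gl lies close.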

How the data were processed

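The deposited table gave 1 value per gene for each of 3 libraries. Per the submitters' processing notes, TopHat2 2.0.10, Cuffdiff 2.2.1 and the build mm10 were used; the sources used here give neither annotation nor strand setting. The authors' deposited values were taken as FPKM, since Cuffdiff writes that unit and the header names none. Of 23352 lines, 1 was empty and 3 held a cell that was no number, leaving 23348. Table starts count from 0 and are printed from 1.

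Differences are of log2(FPKM + 1) and a gene was called at 2-fold or more. With 1 library per genotype no test was run. The code was checked on simulated data. A rough depth came from the steps between the lowest FPKM of genes with 1 transcript, assuming fragments of 200 bases: 5 FPKM on 2 kb stood for about 243, 267 and 422 fragments in CD2-Ostm1 gl/gl, gl/gl and wild type. Shared 50-base windows were counted in GENCODE transcripts. Python 3.11.15, pandas 2.3.3 and matplotlib 3.10.9 were used.

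The members, the 15 gene lists and the motifs were chosen with earlier results of these data known. All members are named, then up to 4 genes per list with the greatest difference of gl/gl from wild type, and the 10 genes nearest in pattern. Klrb1b, Klra3, Klra9, the Klrc genes, Lck, Fyn, Cd247, Gzmc, Gzmk, Gzmm, Cxcr6, Il18r1, Il7r, Il23r, Cd3d, Cd3g, Ctsg, Kit, Hdc, Cpa3, Tpsb2, Id2, Runx3, Clec7a, Gabarapl1 and the genes of the paragraph on the libraries were named after their values were seen. Alternatives were other pseudocounts, filters, scalings and fold thresholds.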

Additional observations from a re-analysis of the deposited data

How the results depend on the processing

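Of 180 values for single members under the 6 alternatives that kept the 2-fold threshold, 170 stayed on their side of it, 7 fell short of it and 3 passed it. The alternatives that only changed the filter could not move a member's value, since every member was above 5 FPKM in gl/gl. They add to the 170 without testing it, and all changes came from other pseudocounts and scalings. No called value changed sign, and 1 uncalled value did: Nkg7 in CD2-Ostm1 gl/gl against wild type, with -0.07 with a pseudocount of 1 and no scaling and 0.0050 with equal upper quartiles. At a threshold of 4-fold, 2 members were higher in gl/gl than in wild type, 0 were lower in CD2-Ostm1 gl/gl than in wild type and 1 was lower in CD2-Ostm1 gl/gl than in gl/gl; the medians of 1.09 and -1.46 for gl/gl against wild type and CD2-Ostm1 gl/gl against gl/gl are then short of the threshold. With a pseudocount of 5 the first median was 0.98, under 2-fold, and 5 members were called. The count of members lower in CD2-Ostm1 gl/gl than in wild type was 1 with a pseudocount of 5, 1 with libraries scaled to their median gene ratio and 1 with equal upper quartiles. Nkg7 was called higher in gl/gl, at 1.02, with libraries scaled to their median gene ratio. Over all measured genes, 1048 were higher and 790 lower in gl/gl than in wild type, against 520 and 347 with a pseudocount of 5, 304 and 145 at 4-fold and 2097 and 2073 at 1.5-fold. In CD2-Ostm1 gl/gl against wild type 172 were higher and 215 lower, against 505 and 425 with a pseudocount of 0.1, 49 and 91 with 5, 26 and 51 at 4-fold and 672 and 548 at 1.5-fold. In CD2-Ostm1 gl/gl against gl/gl 831 were higher and 1262 lower, against 1308 and 1619, 297 and 633, 155 and 333, and 2160 and 2412 under the same 4 alternatives. The count of members lower in CD2-Ostm1 gl/gl than in gl/gl was 8 with a pseudocount of 5 and 8 with equal upper quartiles, and 10 with a pseudocount of 0.1 or scaling to the median gene ratio. No paired analysis was possible because each genotype has 1 library, and none could be left out. Depth does not limit the 10 members much, but the lack of replicates limits every difference.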

Other observations

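Markers of innate lymphoid cells other than NK cells were also read. Of 15 listed genes 12 were measured, and 3 were at least 2-fold higher and none lower in gl/gl than in wild type. Among all measured genes 8.16% were higher and 6.15% lower. The 3 genes were Lta, Il1rl1 and Il13. Lta, a lymphotoxin, had 10.6 against 3.87 FPKM, Il1rl1, the interleukin 33 receptor, 8.76 against 3.50, and Il13 4.17 against 1.52. Il23r, a chain of the interleukin 23 receptor, had 12.6 FPKM in CD2-Ostm1 gl/gl, 24.0 in gl/gl and 39.9 in wild type, and was highest in wild type, unlike the 10 NK genes. Il1rl1, Il23r and Il7r were the 3 genes at least 2-fold lower in CD2-Ostm1 gl/gl than in wild type, with log2 differences of -1.63, -1.59 and -1.42. The share of all measured genes was 1.67%.

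Of 17 listed genes for ligands of NK receptors 8 were measured, and none reached 2-fold between gl/gl and wild type in either direction. Among all measured genes 8.16% were higher and 6.15% lower, so a count of 0 among 8 genes does not set the ligands apart. Their log2 differences ran from -0.67 to 0.76. H2-T23, which encodes Qa-1, the ligand of CD94/NKG2 receptors, had 96.5 FPKM in CD2-Ostm1 gl/gl, 202 in gl/gl and 119 in wild type, and Cd48, the ligand of Cd244, had 130, 102 and 164 FPKM. Ulbp1, a ligand of NKG2D, had 7.92, 4.57 and 6.93 FPKM. H60b, another ligand of NKG2D, had 1.82, 1.11 and 0.445 FPKM, and differed between gl/gl and wild type in the other direction. Its values lie near the limit of 1 FPKM.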
